A study of Mus musculus with 16 samples.

Results

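GEM/anti-CD40 Ab-treated tumors were compared with control tumors of the same experiment, which uses 8 of the 16 arrays of the series, 4 in each group. Array membership followed the treatment named in the labels. In all groups PDA30364, a pancreatic tumor line of the C57BL/6 background, had been injected in PBS/Matrigel under the flank skin of C57BL/6-Ly5.1 mice aged 6 to 12 weeks, with the same number of cells in each mouse. Tumors of the combination group had received gemcitabine (GEM) at 120 mg/kg on treatment days 1, 5 and 12 together with a mouse IgG1 antibody against CD40 on days 3, 4, 6 and 14. Control tumors had received vehicle and control IgG instead. The other 8 arrays hold tumors of mice given 1 of both agents, 4 per group. Tumors were taken at day 22 or 23 after inoculation, and 1 array was made from whole-tumor RNA of each. The model is 1 tumor line grown outside the pancreas and the RNA came from all cells of a piece of it, so that fewer cells of a type and less RNA per cell cannot be told apart.

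CD40 is a receptor of the TNF receptor superfamily on dendritic cells, macrophages and B cells, and its ligation by T helper cells or by an agonist antibody drives these cells through NF-kB to produce cytokines and to present antigen. GEM is taken up by nucleoside transporters, is phosphorylated in the cell and stops DNA chain elongation, with most effect on dividing cells. Pancreatic tumors are known for a dense myeloid infiltrate, which is drawn in by chemokines such as the CC family that acts on monocytes and the CXC family that acts on neutrophils through Cxcr2.

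A total of 8 probe sets were higher in GEM/anti-CD40 Ab-treated than in control tumors at an adjusted p under 0.05, and 0 were lower (limma, 45037 tested, 0.0178% called). They measured the chemokines Ccl6 and Ccl9, with 2 probe sets each, the neutrophil-attracting chemokine Cxcl3 and the purine enzyme Ada, with 1 each. A further probe set has no gene name here, and the last belongs to a gene that is not reported here. Without the adjustment, 1956 probe sets were higher and 2357 lower at p under 0.05 (4.34% and 5.23%). The split depended on the scaling of the arrays: 45.4% of these probe sets higher as deposited and 19% when arrays were shifted to the same 75th percentile. Over all 18193 genes the median log2 change was -0.015, with quartiles at -0.10 and 0.07.

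Large differences ran mostly upward. A log2 change of at least 1 was seen in 197 genes (1.08%) and one of at most -1 in 48 (0.264%). The groups did not overlap in 75 of the 197 and in 8 of the 48. Of the 48 lower genes, 28 are keratin, keratin-associated or late cornified envelope genes of skin and hair, and in 39 of the 48 the highest control value lay in control replicate 2. Without that array 7 of the 48 were still at or under -1, while 169 of the 197 higher genes stayed at or above 1.

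Of the 8 arrays, 2 stood far above the rest of their group in marker lists of neighboring tissue. The mean over 15 skin keratinocyte genes was 8.46 in control replicate 2, and 4.86 to 5.12 in the other 3 control arrays and 5.02 to 5.16 in the combination. In that control array Krt1, a keratin of the outer skin layers, stood at 9.92 against 4.31 to 4.44 in the other 3. The mean over 14 skeletal muscle genes was 12.1 in GEM/anti-CD40 replicate 4, where the other 3 combination arrays held 5.09 to 5.98. Control replicates 1 to 4 held 5.205, 6.46, 6.59 and 7.395, so that muscle genes differed among control arrays too. The keratins Krt8 and Krt19 of the tumor epithelium were bright in both groups. Krt8, a keratin of simple epithelia, ranged from 13.7 to 13.8 in control and from 13.6 to 13.8 in combination tumors, and Krt19, a ductal keratin, from 13.0 to 13.2 in both. These 2 arrays are called below the arrays that hold skin or muscle genes, and results are given with and without them wherever that moved a call. Without both, the median change of the muscle list was -0.92, so that leaving them out did not level the muscle genes.

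The promoters of the 4 genes described first are printed here, since these are the reported genes that passed, and 3 of them encode chemokines. Each run holds 250 bases before and 50 after the start of the gene on its own strand, from RefSeq, build GRCm38.p6. Capitals mark matches, on both strands, to any of 6 motifs: NF-kB (GGG and TTTCC with any 2 bases between), AP-1 (TGANTCA), C/EBP (TTGCNNAA), PU.1 (GAGGAA), GAS (TTCNNNGAA) and ISRE of interferon-stimulated genes (GAAA and GAAA with any 2 bases between).
Cxcl3: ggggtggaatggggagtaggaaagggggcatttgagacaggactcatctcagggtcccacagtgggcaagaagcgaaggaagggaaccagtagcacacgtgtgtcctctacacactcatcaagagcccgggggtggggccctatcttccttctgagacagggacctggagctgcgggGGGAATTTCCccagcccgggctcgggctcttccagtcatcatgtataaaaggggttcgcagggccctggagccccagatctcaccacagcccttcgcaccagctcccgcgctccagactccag
Ccl6: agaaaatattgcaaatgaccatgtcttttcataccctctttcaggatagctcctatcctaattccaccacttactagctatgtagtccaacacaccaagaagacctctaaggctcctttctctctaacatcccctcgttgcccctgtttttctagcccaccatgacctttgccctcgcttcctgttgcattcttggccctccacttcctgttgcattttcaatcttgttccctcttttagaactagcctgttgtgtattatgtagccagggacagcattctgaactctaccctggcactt
Ccl9: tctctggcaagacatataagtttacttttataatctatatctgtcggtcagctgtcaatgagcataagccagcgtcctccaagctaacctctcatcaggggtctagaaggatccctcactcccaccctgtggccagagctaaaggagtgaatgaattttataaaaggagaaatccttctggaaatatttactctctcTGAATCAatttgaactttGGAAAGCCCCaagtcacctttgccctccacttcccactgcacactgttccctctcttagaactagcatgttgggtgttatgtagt
Ada: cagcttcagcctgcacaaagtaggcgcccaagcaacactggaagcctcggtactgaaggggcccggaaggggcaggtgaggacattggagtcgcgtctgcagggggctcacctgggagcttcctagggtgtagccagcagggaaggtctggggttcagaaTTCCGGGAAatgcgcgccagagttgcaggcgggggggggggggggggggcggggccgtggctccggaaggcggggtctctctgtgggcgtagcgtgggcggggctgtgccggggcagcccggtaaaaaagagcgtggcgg

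The Cxcl3 window, chr5:90785851-90786150 on the plus strand, holds GGGAATTTCC, an NF-kB match, 73 bases before the start. The Ccl9 window, chr11:83578587-83578886 on the minus strand, holds the reverse-strand NF-kB match GGAAAGCCCC 35 bases before the start and the AP-1 match TGAATCA 53 bases before it. In the Ada window, chr2:163750190-163750489 on the minus strand, a GAS match, TTCCGGGAA, lies 90 bases before the start. The Ccl6 window, chr11:83593038-83593337 on the minus strand, holds no match to the 6 motifs. Ccl6 and Ccl9 lie next to each other on chromosome 11. The NF-kB letters occur in 1.63% of the 32851 promoters of the table, AP-1 in 7.81%, GAS in 8.3%, ISRE in 3.44%, C/EBP in 10.8% and PU.1 in 28.3%. These matches describe the letters of the windows and nothing about binding in these tumors.

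Ccl6, a chemokine of macrophages and neutrophils that binds Ccr1, was at 9.03, 9.14, 9.10 and 9.46 in control replicates 1 to 4 (RMA log2 intensity) and at 10.93, 10.82, 10.64 and 10.70 in the combination. The groups were more than 1 log2 unit apart at their nearest arrays. The log2 change was 1.59 (SE 0.11, adjusted p = 0.0054 by limma, n = 4 per group), and the second probe set gave 1.585. Mean Ccl6 was 9.67 ± 0.34 (SD, n = 4) for GEM and 9.96 ± 0.41 for anti-CD40 Ab.

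Ccl9, its neighbor and also a ligand of Ccr1, was at 7.89, 8.17, 7.95 and 8.31 in control tumors and at 9.95, 9.82, 9.48 and 9.72 in combination tumors. Again no array of either group fell within the other group. The log2 change was 1.66 (SE 0.12, adjusted p = 0.0054, limma), and the second probe set gave 1.66 as well (adjusted p = 0.014). Means were 8.69 ± 0.33 with GEM and 8.74 ± 0.35 with anti-CD40 Ab, so that both single treatments lay between control and combination for both chemokines. Compared directly, the combination was above anti-CD40 Ab by 0.81 for Ccl6 (SE 0.18) and by 1.00 for Ccl9 (SE 0.17), and above GEM by 1.10 and 1.05 (SE 0.15 and 0.16), and none of these differences passed (adjusted p = 0.937 and 0.197, limma).

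Cxcl3, a ligand of Cxcr2 on neutrophils, was at 7.07, 7.17, 6.92 and 7.0 in control tumors and at 8.97, 9.05, 8.90 and 8.31 in the combination. GEM/anti-CD40 replicate 4, the array highest in muscle genes, was the lowest of its group and still more than 1 log2 unit above all control arrays. The log2 change was 1.77 (SE 0.15, adjusted p = 0.0113, limma), or 1.93 without that array (SE 0.081, adjusted p = 0.000395). With either agent alone Cxcl3 was near the middle, at 8.00 ± 0.26 (GEM) and 8.065 ± 0.44 (anti-CD40 Ab).

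Ada, adenosine deaminase, which converts adenosine to inosine, was at 6.79, 6.70, 6.73 and 6.91 in control tumors and at 7.60, 7.66, 7.51 and 7.80 in combination tumors, again without overlap. The log2 change was 0.86 (SE 0.080, adjusted p = 0.014, limma). Ada differed less from the single treatments, which were at 7.325 ± 0.13 with GEM and 7.48 ± 0.23 with anti-CD40 Ab. The unnamed probe set was at 3.87 ± 0.099 in control and 4.76 ± 0.094 in combination tumors, a log2 change of 0.89 (adjusted p = 0.0103) at a low intensity, since the median over all probe sets was 5.62.

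**Figure D1:**
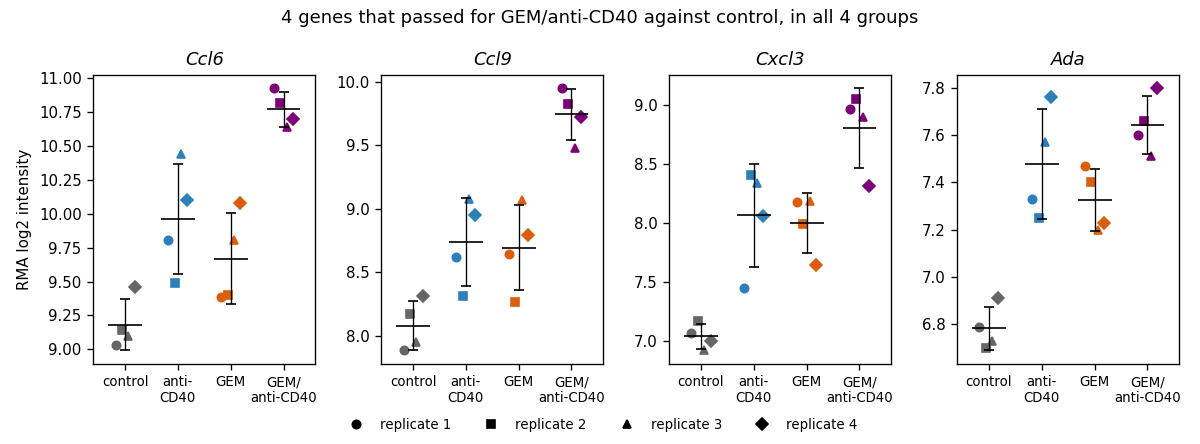
RMA log2 intensity of Ccl6, Ccl9, Cxcl3 and Ada in each tumor of the 4 groups. Points are tumors with marker shapes for replicate numbers, long lines are group means and whiskers are SDs (n = 4). All 4 combination tumors lie above all 4 control tumors in each panel, and the means of both single treatments lie in between.

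These 4 calls rest on few arrays. When single arrays were left out, the adjusted p was 0.0028 to 0.0583 for Ccl6, 0.0142 to 0.0583 for Ccl9, 0.000395 to 0.091 for Cxcl3 and 0.0315 to 0.0931 for Ada, while the log2 changes moved little, from 1.54 to 1.68, from 1.59 to 1.75, from 1.69 to 1.93 and from 0.81 to 0.90. Leaving out GEM/anti-CD40 replicate 2 took Ccl6 and Ccl9 over the 0.05 limit. Cxcl3 passed without control replicate 2 or GEM/anti-CD40 replicate 3 or 4 only, and Ada without control replicate 4 or GEM/anti-CD40 replicate 3 or 4 only. Without both arrays that hold skin or muscle genes Ccl6, Ccl9 and Ada did not pass (adjusted p = 0.0506, 0.0629 and 0.128), a setting chosen after seeing the data.

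**Figure D2:**
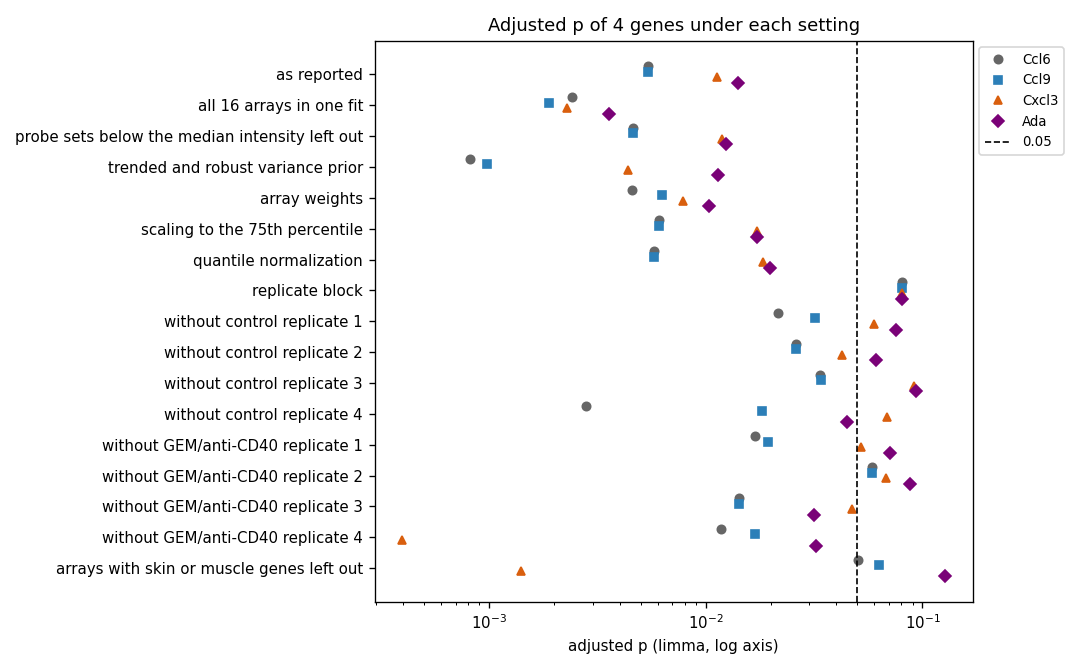
Adjusted p of Ccl6, Ccl9, Cxcl3 and Ada (limma, log axis) as reported and in 16 other settings. The dashed line marks 0.05. All points beyond the line belong to the replicate block or to settings with fewer arrays, some of which also hold the points farthest to its left, such as Cxcl3 at 0.000395 without GEM/anti-CD40 replicate 4.

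Around these genes, the wider chemokine families were described by list. All 6 measured genes of the CXC list for neutrophils had log2 changes above 0, where 44.3% of all genes did, and 5 were higher at an unadjusted p under 0.05, where 5.86% of all genes were. Their median log2 change was 0.83, beside -0.015 over all genes. Ppbp, a platelet-derived Cxcr2 ligand, was at 4.57, 5.57, 5.23 and 4.20 in control and 5.69, 6.69, 6.79 and 6.74 in combination tumors, without overlap (log2 change 1.585, adjusted p = 0.36). Cxcl2 and Cxcl1, further Cxcr2 ligands, had changes of 1.005 and 0.65, and the receptor Cxcr2 itself 0.29.

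Among 18 CC chemokines and receptors, 9 were higher at an unadjusted p under 0.05 and 7 did not overlap between groups. The shares of all genes were 5.86% higher at that p and 3.00% fully above control. The median log2 change was 0.82, or 0.55 without GEM/anti-CD40 replicate 1. Ccl2, the main attractant of Ccr2-bearing monocytes, was at 7.04, 7.21, 6.99 and 7.15 in control tumors and at 9.55, 8.81, 7.55 and 8.43 in the combination (log2 change 1.49, adjusted p = 0.402). Ccl22, made by dendritic cells and macrophages to draw Ccr4-bearing T cells, was at 6.51, 6.94, 6.43 and 6.96 and at 8.73, 8.74, 7.19 and 8.35 (log2 change 1.54, adjusted p = 0.358), and it passed when GEM/anti-CD40 replicate 3 was left out (1.90, adjusted p = 0.0315). Neither gene overlapped between the groups. Ccl5, a T cell and macrophage attractant, was at 8.69, 7.32, 7.33 and 8.30 against 11.87, 10.13, 9.22 and 8.84 (log2 change 2.105, adjusted p = 0.447), apart by a small gap. Ccl4 and Ccl3, chemokines of activated macrophages, were at 0.21 and 0.42 and did not pass.

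Larger differences than these, none of them past the threshold, were seen in several genes of activated myeloid cells, and their values spread widely among the 4 combination tumors. Saa3, an acute-phase protein of macrophages, was at 6.17, 7.56, 6.95 and 6.93 in control tumors and at 13.04, 11.63, 9.10 and 10.68 in the combination. Its groups did not overlap, and its log2 change of 4.21 (SE 0.72, adjusted p = 0.278, limma) was the highest of all 18193 genes. Fpr2, a formyl peptide receptor of phagocytes, was at 5.76, 6.20, 6.09 and 6.31 in control and at 11.38, 9.52, 7.64 and 8.31 in combination tumors. The lowest of these combination values was still above every control value, and the log2 change was 3.12 (SE 0.68, adjusted p = 0.372).

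Clec4e, also called Mincle, a receptor for microbial glycolipids and dead cells, went from 5.44, 5.49, 5.41 and 5.04 to 10.59, 8.73, 6.71 and 7.19, a log2 change of 2.96. Chil3, the chitinase-like protein Ym1 of alternatively activated macrophages, was at 4.34, 5.05, 3.72 and 4.65 in control tumors and at 8.97, 6.70, 6.26 and 7.60 in the combination, a change of 2.94. Its relative Chil1 had a change of 3.335. For Saa3, Fpr2, Clec4e, Chil3 and Chil1 alike, replicate 1 was the highest combination tumor and replicate 3 the lowest. Without replicate 1 the changes were 3.57, 2.40, 2.198, 2.41 and 2.55, in the same order of genes.

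Il6, the cytokine that drives acute-phase genes, was at 3.23, 4.30, 3.54 and 3.73 in control and at 8.15, 5.20, 4.81 and 5.79 in combination tumors. The change of 2.29 (SE 0.65, adjusted p = 0.436) fell to 1.57 without GEM/anti-CD40 replicate 1. Of 16 inflammatory macrophage genes, all had changes above 0, 13 were higher at an unadjusted p under 0.05 and 12 did not overlap, with a median of 0.93. The shares of all genes were 44.3% above 0, 5.86% higher at that p and 3.00% fully above control. Acod1, which makes itaconate in activated macrophages, was at 2.42, Il1b at 1.04 and Tnf at 0.54, all without overlap. The 3 that did not reach p under 0.05 were Cd86, Slc7a11 and Nos2 (0.45, 0.41 and 0.21). In the interleukin-1 family and Il6 list 10 of 16 were higher at p under 0.05, among them Il1rn, the interleukin-1 receptor antagonist (0.82), and Osmr, the oncostatin M receptor (0.545), with a median of 0.49.

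**Figure D3:**
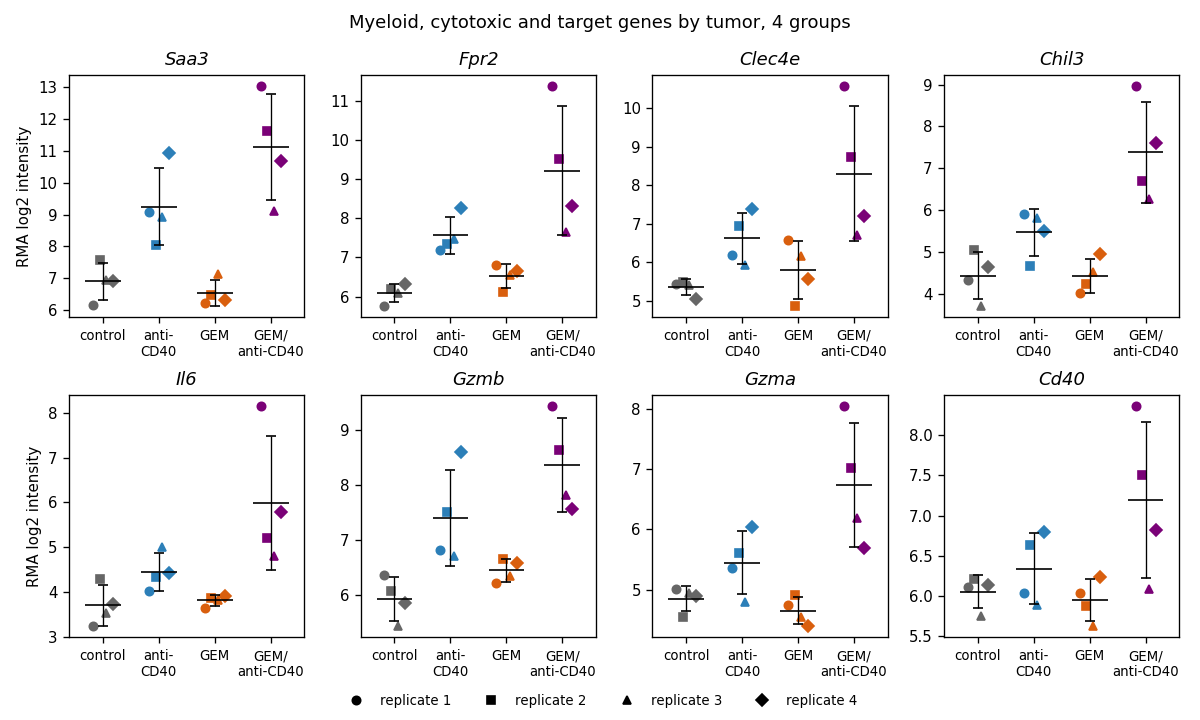
RMA log2 intensity of Saa3, Fpr2, Clec4e, Chil3, Il6, Gzmb, Gzma and Cd40 in each tumor of the 4 groups. Points are tumors with marker shapes for replicate numbers, long lines are means and whiskers are SDs (n = 4). Combination replicate 1 is the highest point of its group in all 8 panels.

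The list of alternatively activated macrophage genes had a lower median than the inflammatory list, 0.25 over 15 measured genes, or 0.14 without control replicate 3 and 0.012 without GEM/anti-CD40 replicate 4. How many of its members passed the test is not given here. Chil3 belongs to it, and so does the scavenger receptor Msr1 (1.37, adjusted p = 0.151), whose groups did not overlap. Mrc1, which encodes the mannose receptor CD206, was at 0.045, Retnla at 0.15 and Mgl2 at -0.315. Pan-macrophage and monocyte markers had a median of 0.63, and of 0.40 without GEM/anti-CD40 replicate 1. There 17 of 18 were above 0 and 7 higher at p under 0.05, where 44.3% and 5.86% of all genes were. Lyz2, lysozyme of myeloid cells, was at 11.97, 11.75, 11.45 and 12.19 in control tumors and at 13.49, 13.19, 12.61 and 12.76 in the combination (log2 change 1.17, adjusted p = 0.306). Its groups did not overlap, nor did those of Itgam, the CD11b integrin chain (1.302), whereas Adgre1, a surface antigen of mature macrophages, was at 0.085 and Cx3cr1 at -0.29.

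Neutrophil genes had a median of 0.54, with 10 of 16 higher at p under 0.05, where 5.86% of all genes were. S100a9 and S100a8, the calprotectin subunits, were at 1.20 and 0.97. Camp, the cathelicidin of neutrophil granules, was at 4.64, 4.80, 4.65 and 4.44 in control and at 5.34, 5.37, 5.11 and 5.05 in combination tumors, a change of 0.585 without overlap (adjusted p = 0.278). Under single treatments Camp was near control, at 4.605 ± 0.056 (anti-CD40 Ab) and 4.65 ± 0.094 (GEM). The combination was above these by 0.61 and 0.57 (adjusted p = 0.937 and 0.197, limma). In every array Camp lay under 5.62, the median intensity over all probe sets. Ngp, another granule gene, had a change of 1.15, from a low control mean of 4.77 to 5.92. Among other myeloid lists, Fc receptors for IgG had a median of 0.865 (0.51 without GEM/anti-CD40 replicate 1) with 3 of 6 at p under 0.05, Toll-like receptors 0.245 (0.1375 without it) with 5 of 13 and complement 0.46 (0.304 without it) with 3 of 14 higher and 1 lower. Of all genes, 5.86% were higher and 5.35% lower at that p, and the 1 lower complement gene is near the second share. In complement, properdin, Cfp, was at 1.635 and the C1 inhibitor, Serping1, at 1.58.

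Cd40, the target of the antibody, was at 6.11, 6.21, 5.75 and 6.13 in control tumors and at 8.36, 7.50, 6.08 and 6.82 in the combination. The groups overlapped through GEM/anti-CD40 replicate 3, and the change of 1.14 (SE 0.41, adjusted p = 0.479) was 0.75 without replicate 1. Of 16 genes of CD40 signaling and noncanonical NF-kB, 9 were higher at an unadjusted p under 0.05, 5 did not overlap, and the median was 0.27. Of all genes, 5.86% were higher at that p and 3.00% lay fully above control. The NF-kB feedback inhibitors Tnfaip3 and Nfkbia were at 0.40 and 0.41, the subunit Relb at 0.44 and Birc3, a component of CD40 receptor complexes, at 0.37. The changes of these 4 genes are small, and their groups did not overlap. Tnfrsf9, the 4-1BB costimulatory receptor, was at 8.60, 8.28, 8.52 and 8.26 in control and 9.19, 9.13, 9.16 and 8.93 in combination tumors (0.69, adjusted p = 0.151), and the ligand gene Cd40lg was at -0.005.

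Among genes of cytotoxic lymphocytes, 10 of 16 were higher at an unadjusted p under 0.05, where 5.86% of all genes were. The median change was 0.87, or 0.54 without GEM/anti-CD40 replicate 1. Gzmb, granzyme B of killer cells, was at 6.36, 6.06, 5.42 and 5.84 in control tumors and at 9.44, 8.64, 7.81 and 7.57 in combination tumors, a change of 2.445 (SE 0.39, adjusted p = 0.214). Gzma was at 5.01, 4.55, 4.94 and 4.90 against 8.04, 7.02, 6.18 and 5.69 (1.88, adjusted p = 0.395), and Ifng, interferon gamma, at 4.39, 3.59, 3.94 and 4.73 against 8.39, 6.41, 4.92 and 5.08 (2.04, or 1.31 without replicate 1, adjusted p = 0.465). None of the 3 overlapped, and replicate 1 was the highest combination tumor in each. Gzmc was also without overlap at 2.26, and here GEM alone, at 7.62 ± 0.16, was near the combination at 8.065 ± 0.50. Prf1, perforin, was at 0.015 and Gzmm at -0.015.

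Lists of T and NK cell genes had lower medians than that of effector genes. Of 17 T cell genes none was higher and 2 were lower at p under 0.05, Cd4 (-0.185) and Zap70 (-0.17), where 5.86% and 5.35% of all genes were. The list median was 0.225, or 0.077 without GEM/anti-CD40 replicate 1 and 0.144 without control replicate 3. Cd8b1, a chain of the CD8 coreceptor, was at 5.33, 4.14, 4.21 and 5.05 in control and 7.04, 5.74, 5.01 and 4.30 in combination tumors and overlapped. NK cell receptors had a median of 0.27 (0.4575 without GEM/anti-CD40 replicate 3), with 5 of 11 higher at p under 0.05, among them Klrd1 (1.08) and Klrk1 (0.90). In the regulatory T cell and checkpoint list 2 of 13 were higher at p under 0.05 and without overlap, where 5.86% and 3.00% of all genes were, and both encode ligands of PD-1. The list median of 0.15 was 0.06 without control replicate 3 or GEM/anti-CD40 replicate 1. Cd274, PD-L1, was at 7.43, 6.57, 6.30 and 7.12 against 9.79, 8.55, 7.76 and 7.78 (1.615, adjusted p = 0.429), and Pdcd1lg2, PD-L2, was at 1.01. Both were without overlap, while Pdcd1 was at 0.075, Foxp3 at -0.045 and Ctla4 at 0.25.

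Interferon genes showed high list medians with overlap between the groups. All 16 genes of the interferon gamma response had changes above 0, 15 were at p under 0.05, the median was 1.335, and none was free of overlap. The shares of all genes were 44.3% above 0, 5.86% higher at that p and 3.00% fully above control. Cxcl9, which draws T cells through Cxcr3, was at 10.72, 8.37, 8.91 and 10.82 in control and at 13.00, 12.33, 10.72 and 11.40 in combination tumors (2.16, adjusted p = 0.45). Control replicates 1 and 4 thus reached the level of the lowest combination tumor. The list mean per control tumor was 9.76, 8.12, 8.48 and 10.09, and the list median was 1.00 without control replicate 2 and 1.68 without control replicate 4.

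Type I interferon genes had a median of 0.89, with 18 of 18 above 0 and 12 at p under 0.05, and a median of 0.56 without GEM/anti-CD40 replicate 1. Of all genes, 44.3% were above 0, and 5.86% were higher and 5.35% lower at that p. For MHC class I presentation the median was 0.69 with 8 of 13 at p under 0.05, and Nlrc5, its transcriptional activator, was at 1.495. MHC class II genes had a median of 0.495 with none at p under 0.05, and of 0.3125 without control replicate 3 or GEM/anti-CD40 replicate 1. In the dendritic cell list the members divided. Ccl22, Il12b (1.15) and Ccr7, the lymph node homing receptor (0.97), lay above control without overlap, and Flt3, the receptor that dendritic cell precursors depend on (-0.32), and Cd209a (-0.35) lay below without overlap, with Xcr1 at -0.495 and Itgae at -0.615. Each direction held 4 of the 14 genes at p under 0.05, and the list median was -0.0125. With probe sets below the median intensity of 5.62 left out, the median was 0.4675 over 7 genes. Flt3 and Cd209a lay under that intensity, with means of 5.49 and 4.93 in control and 5.17 and 4.58 in combination tumors.

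**Figure D4:**
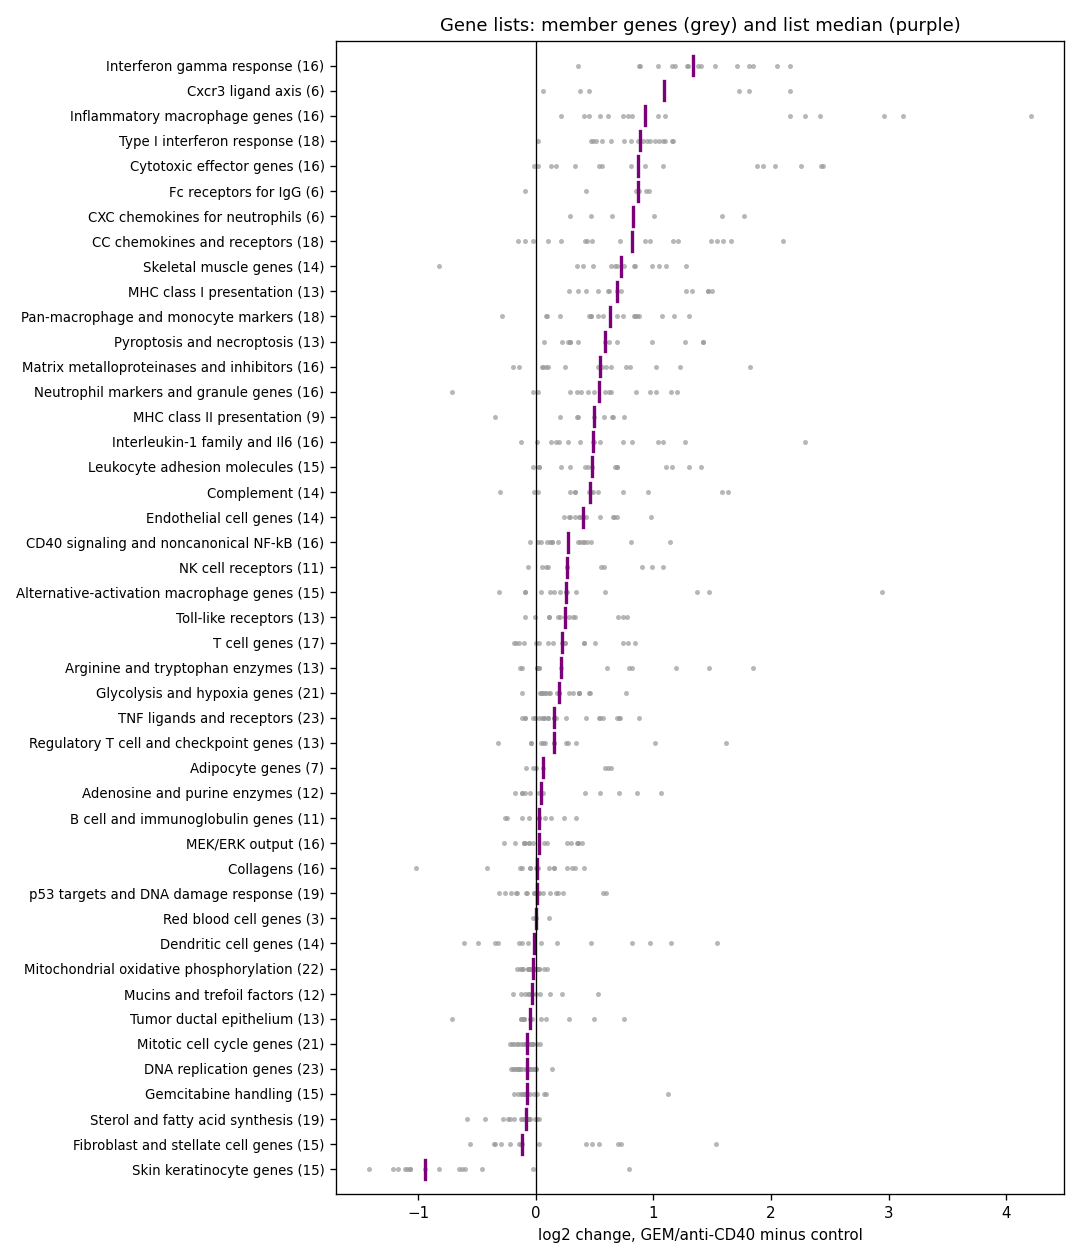
Log2 change of GEM/anti-CD40 against control tumors for the members of 45 gene lists. Grey points are genes, purple bars are list medians, and the number of measured genes is in parentheses. Medians run from -0.94 for skin keratinocyte genes to 1.335 for the interferon gamma response, and 14 lists have a median of at least 0.5, one of them the skeletal muscle list.

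Of the 45 lists, 30 had their highest combination value in replicate 1. The same tumor was the highest of the combination in 154 of the 197 genes with a change of at least 1, and replicate 3 was the lowest in 150, while over all 18193 genes replicate 1 was the highest in 21%. The inflammatory macrophage mean was 8.99, 7.92, 7.15 and 7.38 in combination replicates 1 to 4 and 6.28 to 6.47 in control tumors, so that the lowest treated tumor stayed above control. In 7 lists all 4 combination tumors lay above all 4 control tumors, namely CXC chemokines for neutrophils, inflammatory macrophage genes, interleukin-1 family and Il6, cytotoxic effectors, adenosine and purine enzymes, arginine and tryptophan enzymes, and pyroptosis and necroptosis. In none did all lie below. The mean of the purine list lay above control although its median log2 change was 0.045, with 7 of 12 members above 0 and 5 below. That median turned negative with the 75th percentile scaling, without control replicate 2 and without the arrays that hold skin or muscle genes.

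**Figure D5:**
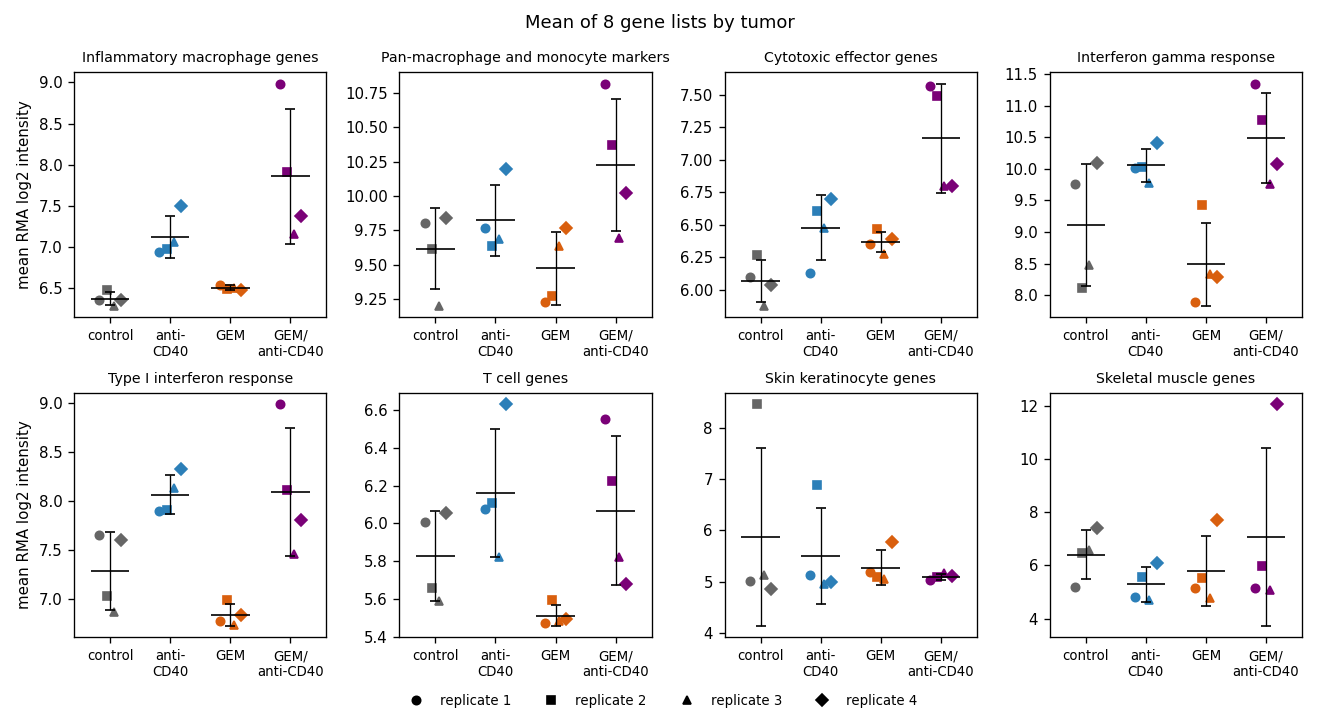
Mean RMA log2 intensity of 8 gene lists in each tumor of the 4 groups. Points are tumors with marker shapes for replicate numbers, long lines are means and whiskers are SDs (n = 4). Combination replicate 1 is the highest tumor of its group in the 6 immune lists. The skin and muscle lists are highest in control replicate 2 and GEM/anti-CD40 replicate 4. Next come anti-CD40 replicate 2 for skin (6.88) and GEM replicate 4 for muscle (7.73).

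Enzymes of nucleosides and amino acids were looked at because GEM is a nucleoside and because myeloid cells use arginine and tryptophan. Beside Ada, 4 purine genes were higher at p under 0.05 without passing, namely Xdh, xanthine dehydrogenase (1.065), Ampd3 (0.71), Entpd1, the CD39 ectoenzyme (0.54), and Pnp, which acts after Ada (0.42). Hprt, of purine salvage, was lower at p under 0.05 (-0.175). Nt5e, the CD73 ectoenzyme, was at 0.06. Of 15 genes that take up, activate, inactivate or are targets of GEM, 1 was higher at p under 0.05, Samhd1, a dNTP hydrolase that interferon induces (1.125), and 1 lower, Tyms, thymidylate synthase (-0.18), shares near the 5.86% and 5.35% of all genes. The activating kinase Dck was at -0.12, the deaminase Cda at -0.07 and the transporter Slc29a1 at -0.09. The arginine and tryptophan list, with a median of 0.21 over 13 genes that ranged from 0.061 without GEM/anti-CD40 replicate 1 to 0.366 without replicate 4, holds Ido1 (1.85), which degrades tryptophan, the mitochondrial arginase Arg2 (1.19, no overlap) and the cationic amino acid transporter Slc7a2 (0.82, no overlap).

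Genes of lytic cell death had a median of 0.585, or 0.324 without control replicate 3, with 8 of 13 at p under 0.05. Here and in the next lists, 5.86% of all genes were higher at that p. Zbp1, a sensor of Z-form nucleic acid, was at 7.49, 6.32, 6.61 and 7.49 in control and 9.49, 8.57, 7.54 and 8.01 in combination tumors (1.425, adjusted p = 0.447), and its partner Ripk3 was at 0.69, both without overlap. Casp4, the inflammatory caspase that senses lipopolysaccharide, was at 1.42 and also without overlap. Gsdmd and Gsdme, gasdermins that form the pores, were at 0.22 and 0.065. Leukocyte adhesion molecules had a median of 0.48 (0.317 without GEM/anti-CD40 replicate 1 and 0.729 without replicate 3) with 8 of 15 at p under 0.05, among them the integrin chain Itgb2 (1.41) and Cd44 (0.29), and endothelial cell genes one of 0.40 (0.266 without GEM/anti-CD40 replicate 4) with 8 of 14, among them Vwf (0.98).

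Lists of matrix, stroma and epithelium differed among themselves. Collagens had a median of 0.01, which turned negative under both other scalings of the arrays. Of 16, 1 was lower at p under 0.05, Col11a1 (-1.02, no overlap), a share near the 5.35% of all genes. Matrix metalloproteinases and inhibitors had a median of 0.54 with 9 of 16 higher at p under 0.05, where 5.86% of all genes were. Among them was the macrophage elastase Mmp12 (1.225, adjusted p = 0.278). Fibroblast and stellate cell genes had a median of -0.12 with 0 of 15 at p under 0.05, or 0.03 without control replicate 2, and ran up to 1.53 for Dpt, dermatopontin, whose groups overlapped. For the tumor ductal epithelium the median was -0.05, with Cldn4, a tight junction claudin, at 0.75 and overlapping as its highest member. There Pkhd1, a protein of ductal cilia, was at 8.68, 8.42, 8.53 and 8.62 in control and at 7.97, 8.08, 7.91 and 7.42 in combination tumors, without overlap (-0.72, adjusted p = 0.309).

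Mitotic and DNA replication genes had medians of -0.075 and -0.08, the second at 0.0042 without control replicate 4. At p under 0.05, 0 of 21 and 2 of 23 were lower, where 5.35% of all genes were. The mitotic mean was 9.05, 9.12, 9.27 and 9.88 in control tumors and 9.39, 9.51, 8.69 and 9.39 in the combination, and its median turned to 0.10 without GEM/anti-CD40 replicate 3 or without control replicate 4. Of 19 p53 targets and genes of the DNA damage response, 2 were higher and 1 lower at p under 0.05, where 5.86% and 5.35% of all genes were. Cdkn1a, the p21 cell cycle inhibitor, was at 0.59, Fas at 0.57 and Brca1, the lowest, at -0.315. Bbc3 lay below control without overlap, at -0.19 to -0.13 with single arrays left out. The list median of 0.0075 changed sign under both other scalings and without several single arrays. Of 16 MEK/ERK output genes, 8 had changes above 0 and 8 below. Without overlap, 2 lay above control, Fosl1 (0.39) and Dusp5 (0.36), and 2 below, among them Spry1 (-0.27). Over all genes 3.00% lay without overlap on each side. Sterol and fatty acid synthesis had 17 of 19 members below 0, where 54.7% of all genes were, and 6 lower at p under 0.05, where 5.35% of all genes were, among them Scd1, the desaturase of stearate (-0.58), Mvk (-0.28) and Cyp51 (-0.235). Mitochondrial oxidative phosphorylation was at -0.025.

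No gene was lower at an adjusted p under 0.05. Itih4, an acute-phase plasma protein mainly known from liver, was at 7.86, 7.74, 7.96 and 7.95 in control and at 6.95, 7.20, 6.93 and 6.63 in combination tumors, with a change of -0.95 (SE 0.12, adjusted p = 0.0808). Ptn, the growth factor pleiotrophin, was at 7.16, 7.75, 7.03 and 8.31 against 4.49, 5.98, 5.41 and 6.23, a change of -2.035 (SE 0.40, adjusted p = 0.338), the lowest of all genes. Both groups were apart in every array. Hao1, a liver oxidase, was at 5.68, 4.82, 5.93 and 6.80 against 3.86, 4.80, 4.17 and 3.58, a pair of groups that nearly touch. Further genes with small p and no overlap were Calml4 (-0.58), Vstm4 (-0.875), Ptgds, a prostaglandin D synthase (-0.64), Matn2 (-0.535), Afm (-0.665) and Hao2 (-0.54). Pla2r1 (-0.54), Calr3 (-0.845), Gstm1 (-0.535), Zfp946 (-0.30) and Fabp2 (-0.755) followed, and adjusted p ran from 0.136 to 0.309. With Itih4 these are the 12 lower genes of smallest p without overlap. Lce1f, at -1.315, was at 8.44 in control replicate 2 and 4.13 to 4.43 in the other control tumors, and its change was -0.27 without that array.

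Set beside the single treatments, which share their control and combination arrays with the comparisons above, 0 of 45037 probe sets passed for the combination against anti-CD40 Ab and 0 against GEM (limma), with 2072 (4.60%) and 5211 (11.6%) at an unadjusted p under 0.05. In the titles, GEM replicates 3 and 4 bear 1 animal number. The list medians are given here as values. For inflammatory macrophage genes the median change against control was 0.62 for anti-CD40 Ab, 0.21 for GEM and 0.93 for both. For the interferon gamma response these values were 0.99, -0.62 and 1.335, for type I interferon genes 0.88, -0.385 and 0.89, and for MHC class I presentation 0.62, -0.33 and 0.69. For CC chemokines and receptors they were 0.325, 0.09 and 0.82, for cytotoxic effectors 0.30, -0.08 and 0.87, and for pan-macrophage markers 0.175, -0.175 and 0.63. Type I interferon genes thus stood at a similar value with anti-CD40 Ab alone and with both agents, with a median direct difference of 0.025, whereas that of pan-macrophage markers was 0.45.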

How the data were processed

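Tumor RNA was hybridized to Affymetrix mouse genome arrays. Values deposited by the authors are on a log2 scale after RMA normalization, rounded to 2 decimals; sources do not name its version or which arrays entered together. Of 45101 probe sets, 64 are array controls and were dropped, and no other filter preceded the test of 45037. Among them, 34945 matched 1 gene symbol, 932 several and 9160 none, through GEO's platform annotation and RefSeq (GRCm38.p6, names only), giving 18193 genes. Genes with more than 1 probe set were represented by the brightest, judged by its mean in all 16 arrays.

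Groups were compared with limma 3.58.1 in R 4.3.3 (two-sided, no covariate, Benjamini-Hochberg over all probe sets, 8 arrays per comparison), after a test on simulated data. Depth has no meaning for arrays, and 4 tumors per group limit the precision.

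The members and the 45 gene lists (724 entries, 655 measured) were chosen with earlier results of these data known, so their counts and medians describe and carry no test. Named genes were those that passed, the 12 smallest p and 5 largest changes in each direction without overlap between groups, up to 4 members of each list by p among those without overlap at p under 0.05, and Cd40. Other names are list members given as landmarks, chosen after their values were seen. A gene that the rule would name is not reported here.

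Alternatives were all 16 arrays in one fit, dim probe sets left out, a trended and robust prior, array weights, 75th percentile scaling, quantile normalization, the replicate number as a block, a log2 change of at least 1 added, each array left out and, for lists, other choices of probe set. A fit without both arrays that hold skin or muscle genes was chosen after the data had been seen.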

Additional observations from a re-analysis of the deposited data

Results flagged for a closer look

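In 12 of 290 group and value combinations, 1 of the 4 tumors lay apart from the other 3 by more than Dixon's critical ratio of gap to range. Chance flags about 1 in 20 such groups. For the lists, skin keratinocyte genes were high in control replicate 2 (8.46, next 5.12, ratio 0.928) while GEM/anti-CD40 replicate 4 was high in those of skeletal muscle (12.1, next 5.98, ratio 0.872). Adipocyte genes were high in control replicate 3 (6.92, next 6.72, ratio 0.857), and mitotic cell cycle genes were low in GEM/anti-CD40 replicate 3 (8.69, next 9.39, ratio 0.852).

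Among genes, Lce1f was high in control replicate 2 (8.44, next 4.43, ratio 0.93), the array of the skin list. Ppbp was low in GEM/anti-CD40 replicate 1 (5.69, next 6.69, ratio 0.909), and Casp8 (10.44, next 10.3, ratio 0.875) and Mmp19 (7.09, next 6.35, ratio 0.841) were high in it. In control tumors, Tlr8 was low in replicate 2 (5.07, next 5.27, ratio 0.87), Nfkbia in replicate 3 (11.68, next 11.99, ratio 0.886), and Tnfaip3 (9.71, next 9.92, ratio 0.84) and Ampd3 (6.31, next 6.68, ratio 0.902) in replicate 4.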

How the results depend on the processing

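No named gene changed direction in 1584 gene and setting pairs, and calls were less stable, with 27 pairs losing and 19 gaining a call. Against 8 probe sets higher and 0 lower, all 16 arrays in one fit gave 36 and 8 (44 in all), and the trended and robust prior gave 13 in all with 1 lower. The other scalings, the array weights, the dim filter and the added log2 change of at least 1 kept the count within 1.5 times. Leaving out single arrays gave 0 to 11 higher and 0 lower, the 0 without GEM/anti-CD40 replicate 2, and leaving out both arrays with skin or muscle genes gave 2. With the replicate block 0 passed (limma, 4826 at an unadjusted p under 0.05, and 4575 without GEM/anti-CD40 replicate 2), and Ccl6, Ccl9, Cxcl3 and Ada each had an adjusted p of 0.08. Same-numbered arrays had correlated deviations of 0.0404 to 0.234, not all above 0.1, so the numbers were not taken as pairs. The causes were not tested. At an unadjusted p under 0.05, 2616 probe sets were left with the dim filter and 2671 without the skin and muscle arrays, against 4313. List medians stayed within 1 SD between tumors in 795 of 809 list and setting pairs, and 13 of 45 lists changed sign in some setting, among them skeletal muscle genes, at -0.88 without GEM/anti-CD40 replicate 4, and skin genes, at 0.02 without control replicate 2.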

Other observations

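Several genes outside the lists lay above control without overlap at a log2 change of at least 1, and none passed. They were chosen after their values were seen. Bst1, an ectoenzyme of myeloid and bone marrow stromal cells, was at 5.13 ± 0.35 (SD, n = 4) in control and 7.24 ± 1.04 in combination tumors (change 2.11, SE 0.46, adjusted p = 0.369). F10, coagulation factor X, was at 5.70 ± 0.30 and 7.52 ± 1.07. Rarres2, the chemoattractant chemerin, was at 6.56 ± 0.17 and 8.34 ± 1.01, and Clec5a, a myeloid lectin receptor, at 5.54 ± 0.49 and 7.27 ± 0.79. Csf2rb, the beta chain of the GM-CSF receptor, was at 8.545 ± 0.27 and 9.685 ± 0.64. Olr1, the receptor for oxidized LDL, spread least among combination tumors of these genes, at 5.86 ± 0.74 in control and 7.235 ± 0.11 in the combination, with a mean of 7.25 for anti-CD40 Ab. Among lower genes, Sox2, a stem cell transcription factor, was at 5.08 ± 0.95 in control and 4.04 ± 0.17 in combination tumors (change -1.04, adjusted p = 0.492).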
